A study of Homo sapiens with 4 samples.

Results

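The pocket proteins, the DP factors and the MuvB complex were followed through the silencing of PML, the gene of the promyelocytic leukemia protein. They were taken as the rows of the count table named RB1, RBL1, RBL2, TFDP1, TFDP2, LIN9, LIN37, LIN52, LIN54 and MYBL2. These are 10 of the 59050 genes counted, and all 10 passed the filter on low counts that left 16516 genes to be tested. The cells were RCC4, an established human clear cell renal cell carcinoma line that lacks functional VHL. They carried a lentiviral, doxycycline-inducible hairpin, either shPML#1 against PML (written shPML) or a scrambled control (shCtrl), and both groups received doxycycline at 100 ng/ml for 96 h. The experiment was done 2 times with independent lentiviral infections, which gave 2 libraries of each group, and the replicate numbers of the labels were read as the experiments. A single line, a single hairpin against PML and bulk populations of infected cells limit the comparison as a model, and in bulk RNA fewer cells of a kind and less RNA per cell cannot be told apart.

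Pocket proteins bind E2F transcription factors and hold down the genes that drive entry into the cell cycle, until cyclin-dependent kinases phosphorylate them. E2F factors bind DNA as dimers with a DP factor, TFDP1 or TFDP2. In resting cells RBL1 or RBL2, a repressor E2F and DP join the MuvB core of LIN9, LIN37, LIN52, LIN54 and RBBP4 to form the DREAM complex, which keeps cell cycle genes silent, whereas in cycling cells the same core leaves the pocket protein, takes up MYBL2 (B-MYB) and then FOXM1, and activates the genes of G2 and mitosis.

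Between 27781193 and 69870617 reads were counted per library. PML was at 93.1 and 136 CPM (counts scaled to the TMM-adjusted library size) in shCtrl replicates 1 and 2 and at 54.9 and 87.6 CPM in shPML. It was 41.1% lower in replicate 1 and 35.6% lower in replicate 2, so its RNA was reduced in part only. In edgeR the log2 fold change of PML was -0.69 (adjusted p = 0.32), and -0.70 with the experiment as a block (adjusted p = 4.19e-07 in edgeR). The renal carcinoma markers PAX8, CA9, KRT8, KRT18 and VIM were present in every library, from 64.7 CPM for CA9 to 5870 CPM for VIM. Among markers of other lineages, CDH5 was at no more than 0.0369 CPM in any library, while ALB was at 3.18 and 3.78 CPM in both libraries of replicate 1 and at 0 in those of replicate 2. PTPRC, a marker of blood cells, was at 12.6 CPM in shPML replicate 2, at 0.0976 CPM in shPML replicate 1 and at 0 in shCtrl. Its part in the results was not tested, and the log2 fold changes without shPML replicate 2 are given for the 6 of the 10 genes whose groups did not overlap.

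Of the 10 genes, RB1 and MYBL2 were at about 1 log2 unit less in shPML, TFDP1 and RBL1 were lower by a smaller amount, and RBL2 was slightly higher in each experiment. TFDP2 and 3 of the 4 LIN genes overlapped between the groups. In edgeR's quasi-likelihood test without a block, a call required a Benjamini-Hochberg adjusted p under 0.05 plus a log2 fold change beyond 0.5, and 0 of the 10 were called in either direction. In that fit 0.333% of the genes tested were called lower and 0.0787% higher, and at an unadjusted p under 0.05, 4 of the 10 were lower and 0 higher, against 10.1% and 7.8% of all genes tested. With the experiment as a block, the 4 genes RB1, MYBL2, TFDP1 and RBL1 were called lower and 0 higher, where 10.5% of the genes tested were called lower and 8.57% higher. DESeq2 without a block called RB1, MYBL2 and TFDP1 lower and 0 higher, against 5.44% of the genes tested called lower and 3.49% called higher. With the block DESeq2 called RB1, MYBL2, TFDP1 and RBL1 lower and 0 higher, against 8.39% and 6.71%. The shPML pair lay wholly below the shCtrl pair in 5 of the 10 genes and wholly above it in 1, against 24.9% and 23.1% of the genes tested. The median log2 fold change of the 10 was -0.32, and that of all genes tested was 0.01.

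**Figure D1:**
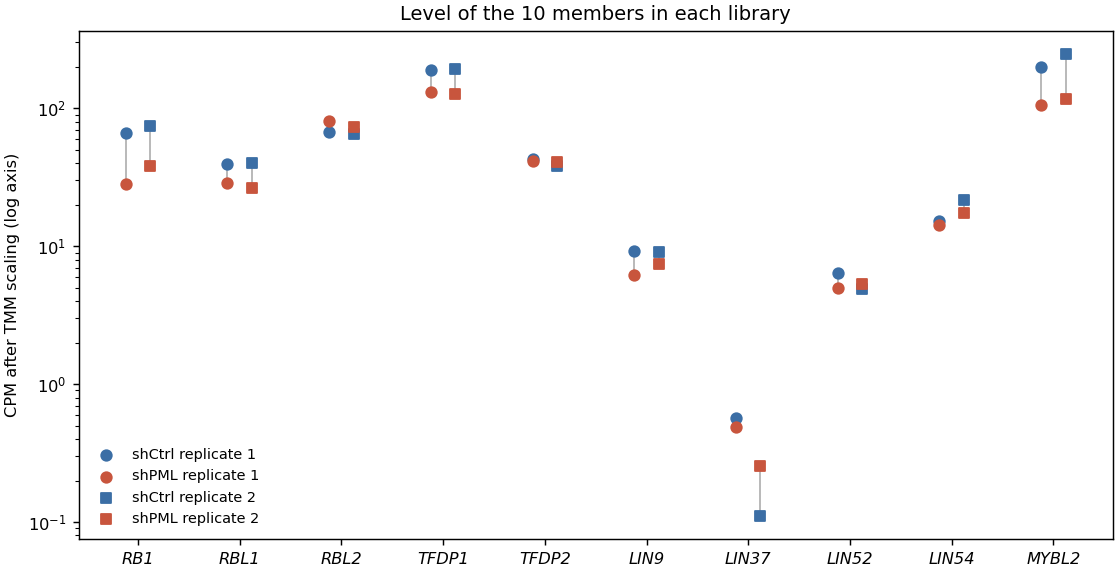
CPM after TMM scaling (log axis) of the 10 genes in each library, with shCtrl in blue, shPML in red, circles for replicate 1 and squares for replicate 2, and grey lines joining the libraries of an experiment. The red points lie below the blue ones of both experiments in RB1, RBL1, TFDP1, LIN9 and MYBL2, and above them in RBL2.

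Promoter sequence is shown for the genes whose window holds the letters to which E2F or the MuvB core binds, since the genes are themselves parts of those complexes. Windows of 300 bases from RefSeq (GRCh38.p14), from 250 before the start site on, were found for 8 of the 10 genes, and for RB1 and LIN54 none was used. The E2F word was taken as TTT, then a pair of bases each C or G, then CGC, on either strand. It occurred in 3 of the 8 windows, those of RBL1, TFDP1 and LIN52, and in 4.22% of 16013 windows of the genes counted. RBL1 held 2 such words starting 26 and 16 bases before the start site, and 0.225% of all windows held 2 or more. The CHR word, TTTGAA or TTCGAA on either strand, is the kind of element that LIN54 binds, and it occurred in the window of RBL2 and in 13.9% of all windows. The windows of TFDP2, LIN9, LIN37 and MYBL2 held neither word. Capitals mark the words, each sequence runs 5′ to 3′ on the strand of the gene, and that of TFDP1 shows the word of the opposite strand.
RBL1, chr20:37096001-37096028 (-): cagatTTTCGCGCgcTTTGGCGCaggtg
TFDP1, chr13:113584623-113584650 (+): ggcgccgaagGCGCGAAAaggcgcgcag
LIN52, chr14:74084921-74084948 (+): ggaacctcgtTTTCCCGCcgacggttgg
RBL2, chr16:53434484-53434511 (+): gcgcttcgccgTTTGAAtggctgcgggc
Of the genes that hold an E2F word, TFDP1 and RBL1 were called lower with the block at -0.55 and -0.53. LIN52 was at -0.12 with a 95% interval from -0.61 to 0.36, which includes both of those values. MYBL2, whose window held neither word, was called lower as well (-0.99), and so was RB1 (-1.09), without a window. In the list of E2F targets read below, the word occurred in 15 of 29 windows. A window without the word may thus still hold a site, and a link between words and changes was not tested.

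RB1, the retinoblastoma protein that binds the activating E2F factors, lies on chromosome 13 of GRCh38 (chr13:48303726-48481890, plus strand). It was at 66.3 and 74.7 CPM in shCtrl replicates 1 and 2 and at 28.4 and 38.4 CPM in shPML. Both shPML libraries were far below both shCtrl libraries, with 57.2% less in replicate 1 and 48.6% less in replicate 2. The group means were 70.5 ± 5.93 CPM in shCtrl and 33.4 ± 7.09 CPM in shPML (SD, n = 2 each). The log2 fold change was -1.08 (standard error 0.20), which did not pass in edgeR's quasi-likelihood test without a block (Benjamini-Hochberg adjusted p = 0.0828). With the block it was -1.09 (95% interval from -1.33 to -0.85, adjusted p = 3.56e-11 in edgeR). The log2 ratio was -1.22 within replicate 1 (95% counting interval from -1.30 to -1.14) and -0.96 within replicate 2 (-1.06 to -0.86), so the experiments differed by more than counting error. Without shPML replicate 2 the log2 fold change was -1.31. None of the exon bases of RB1 is shared with another annotated gene.

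RBL1 (p107) and RBL2 (p130), the pocket proteins of DREAM, are close relatives, and their RNAs had values of opposite sign. RBL1 (chr20:36996349-37095995, minus strand) was at 39.3 and 40.4 CPM in shCtrl replicates 1 and 2 and at 28.9 and 26.4 CPM in shPML. The libraries of a group were close to each other, and the groups did not overlap. It differed by -0.53 on the log2 scale (standard error 0.15), with an adjusted p of 0.172 in edgeR without a block, and with the block it was called at an adjusted p of 0.000521 (95% interval from -0.77 to -0.28). This is near the fold change threshold, and DESeq2 without a block did not call it (adjusted p = 0.0902). Without shPML replicate 2 the value of RBL1 was -0.46. RBL2 (chr16:53434471-53491648, plus strand) was at 67.7 and 64.8 CPM in shCtrl and at 81.0 and 73.0 CPM in shPML. Both shPML libraries were above both shCtrl libraries, by a log2 ratio of 0.26 in replicate 1 (95% counting interval from 0.20 to 0.32) and 0.17 in replicate 2 (0.08 to 0.26). RBL2 was not called in any fit, and its log2 fold change of 0.22 had a 95% interval from -0.01 to 0.44 with the block (adjusted p = 0.146 in edgeR). Without shPML replicate 2 it was 0.29. On the opposite strand, AKTIP and AC007342.6 share 990 of the 4854 exon bases of RBL2 (20.4%), and AL136172.1 shares 211 bases (3.6%) of RBL1. The strand setting of the counting is not given in the sources used here, so reads of these stretches may not be told apart.

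The 3 pocket protein RNAs were also compared per length, as CPM per kilobase of exon, a scale that allows for the different length of genes. The length is that of all annotated exon bases of a gene, not of the transcripts made in these cells. Comparisons of level between genes, here and below, are therefore approximate. The sum of the 3 was 33.9 and 35.2 in shCtrl replicates 1 and 2 and 27.3 and 27.2 in shPML. RBL2 made up 41.1% and 37.9% of that sum in shCtrl and 61.1% and 55.2% in shPML, whereas RB1 went from 39.0% and 42.3% to 20.7% and 28.2%. The share of RBL1 was between 16.7% and 19.9% in all 4 libraries. RB1 and RBL2 thus stood at near equal levels in shCtrl, and RBL2 was the most abundant of the 3 in both shPML libraries. On the log2 scale, the ratio of RB1 to RBL2 was -0.07 and 0.16 in shCtrl and -1.56 and -0.97 in shPML, and that of RBL1 to RBL2 was -1.05 and -0.94 in shCtrl and -1.75 and -1.73 in shPML. Neither ratio overlapped between the groups, and leaving out any 1 library kept the difference between -1.60 and -1.01 for RB1 and between -0.80 and -0.69 for RBL1. No test of these ratios was made, and the smallest two-sided p that an exact permutation test on 2 and 2 libraries allows is 0.333.

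**Figure D2:**
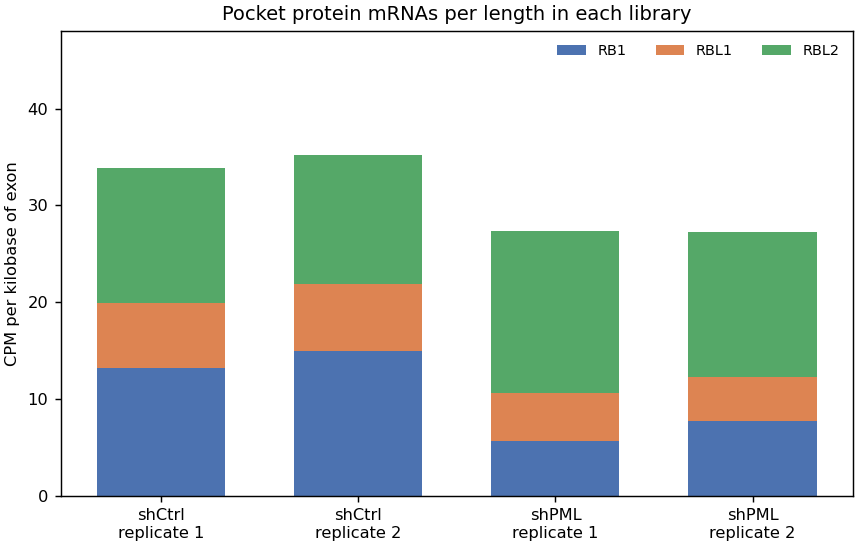
CPM per kilobase of exon of RB1 (blue), RBL1 (orange) and RBL2 (green), stacked for each of the 4 libraries. The sum was 33.9 and 35.2 in the shCtrl libraries and 27.3 and 27.2 in the shPML libraries, with a smaller blue and a larger green part in shPML.

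The DP factors TFDP1 and TFDP2 are the obligate partners through which most E2F proteins bind DNA. TFDP1 (chr13:113584753-113641473, plus strand) was at 188 and 192 CPM in shCtrl replicates 1 and 2 and at 132 and 127 CPM in shPML. The spread within a group was small, with means of 190 ± 2.79 CPM in shCtrl and 130 ± 3.66 CPM in shPML (SD, n = 2 each), and the level was lower by 29.5% in replicate 1 and by 33.6% in replicate 2. The log2 fold change was -0.55 (standard error 0.14), not called without a block (adjusted p = 0.147 in edgeR) and called with it (95% interval from -0.75 to -0.35, adjusted p = 1.35e-05 in edgeR). It was -0.52 without shPML replicate 2. TFDP2 (chr3:141944428-142149532, minus strand) was at 42.9 and 38.4 CPM in shCtrl and at 41.6 and 40.9 CPM in shPML. Its groups overlapped, with log2 ratios of -0.05 within replicate 1 and 0.09 within replicate 2. With the block the log2 fold change of 0.02 had a 95% interval from -0.22 to 0.26 (adjusted p = 0.929 in edgeR). That interval does not reach the threshold of 0.5 in either direction. Per kilobase of exon, TFDP1 was 16.7 and 19.1 times the level of TFDP2 in shCtrl and 12.2 and 11.9 times in shPML. TFDP1 therefore made up at least 92.3% of the DP RNA per length in all 4 libraries.

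MYBL2, the MYB factor that joins the MuvB core in cycling cells, had the largest differences beside RB1. It lies on chromosome 20 (chr20:43667019-43716495, plus strand), shares no exon bases with another gene, and was at 199 and 246 CPM in shCtrl replicates 1 and 2 and at 106 and 117 CPM in shPML. The level was 46.6% lower in replicate 1 and 52.5% lower in replicate 2, and the groups did not overlap although the shCtrl libraries were 0.31 log2 units apart. The log2 fold change without a block was -1.0 (standard error 0.18), with an adjusted p of 0.0774 in edgeR, and with the block it was -0.99 (95% interval from -1.19 to -0.79, adjusted p = 4.85e-12 in edgeR). Without shPML replicate 2 it was -1.07. Per kilobase of exon, MYBL2 was 5.14 and 6.65 times the level of RBL2 in shCtrl and 2.29 and 2.81 times in shPML. MYBL2 and RBL2, partners of the core in its activating and its repressing form, were therefore closer to each other in shPML, with a difference of -1.21 in the log2 ratio of MYBL2 to RBL2.

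**Figure D3:**
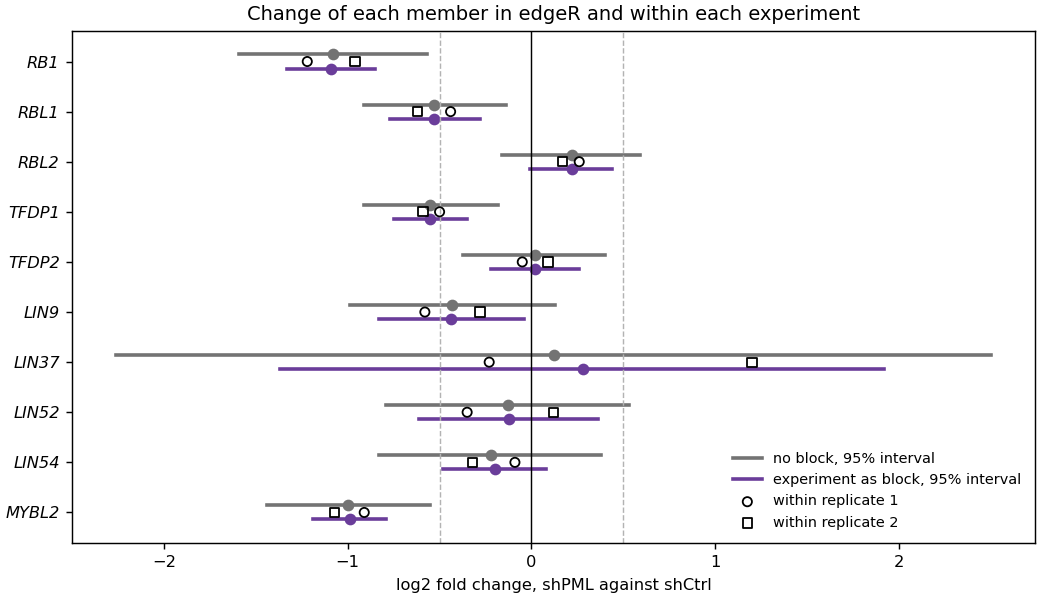
Log2 fold change of shPML against shCtrl for each gene, with edgeR's estimate and 95% interval without a block (grey) and with the experiment as a block (purple), and the log2 ratio within replicate 1 (open circles) and replicate 2 (open squares). Dashed lines mark the threshold of 0.5, and with the block the intervals of RB1, RBL1, TFDP1, LIN9 and MYBL2 lie wholly below 0.

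The LIN subunits of the core were less abundant and none of the 4 was called in any fit. LIN9, a scaffold subunit through which MYBL2 is held, was at 9.22 and 9.03 CPM in shCtrl replicates 1 and 2 and at 6.17 and 7.42 CPM in shPML. Both shPML libraries were below both shCtrl libraries. With the block its log2 fold change was -0.44 (95% interval from -0.83 to -0.04), which did not pass after adjustment (adjusted p = 0.0889 in edgeR). Without a block it was -0.43, and -0.56 when shPML replicate 2 was left out, not called in either case. LIN54, the subunit that contacts DNA, was at 15.2 and 21.6 CPM in shCtrl and at 14.3 and 17.3 CPM in shPML. The shCtrl libraries differed from each other by 0.51 log2 units, more than shPML from shCtrl within either experiment (-0.09 for replicate 1, -0.32 for replicate 2). With the block LIN54 had a log2 fold change of -0.20 (95% interval from -0.48 to 0.08). LIN52, whose phosphorylation by DYRK1A lets RBL1 and RBL2 bind the core, was at 6.39 and 4.92 CPM in shCtrl and at 5.02 and 5.35 CPM in shPML. The log2 ratios within the experiments were opposite in sign, -0.35 for replicate 1 and 0.12 for replicate 2, and the 95% interval with the block ran from -0.61 to 0.36.

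LIN37, a subunit needed for repression by DREAM, could hardly be measured. It held 31 and 4 reads in shCtrl replicates 1 and 2 and 35 and 7 reads in shPML. Within replicate 1 the log2 ratio was -0.23 (95% counting interval from -0.97 to 0.52) and within replicate 2 it was 1.20 (-0.78 to 3.42), so no difference was detectable at this depth. DESeq2 gave LIN37 no adjusted p. LIN37 (chr19:35748576-35754519, plus strand) shares 752 of its 935 exon bases (80.4%) on the same strand with AD000671.1, a gene that runs through LIN37 and PSENEN. All exon bases of AD000671.1 are shared with those genes, and it has 0 counts in all 4 libraries. Only 183 exon bases of LIN37 are free of that overlap, so its count cannot be read as the level of the LIN37 RNA.

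Per kilobase of exon, the order of the mean levels in shCtrl ran from MYBL2 (80.2) and TFDP1 (71.9) through RB1 (14.1), RBL2 (13.6), RBL1 (6.85), TFDP2 (4.03), LIN54 (2.94), LIN9 (2.31) and LIN52 (2.04) to LIN37 (0.366). The neighbours MYBL2 and TFDP1, RB1 and RBL2, and LIN9 and LIN52 overlapped between the shCtrl libraries. In shPML the order began with TFDP1 (49.2) and MYBL2 (40.2), followed by RBL2 (15.9) and RB1 (6.67), and both pairs stood in the reverse of their shCtrl order. The core subunits LIN9, LIN52 and LIN54 had means between 1.72 and 2.94 on this scale in both groups, below the means of all pocket proteins.

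Other genes of the pathway were read as 5 lists, with 112 of 115 genes tested. KIF23 was not in the counts used here, and CDKN2A and CDKN2B did not pass the filter. Without a block 4 genes of the lists were called lower and 0 higher, and with the block 69 were called lower and 4 higher, where 0.333% and 0.0787% of all genes tested were called without a block and 10.5% and 8.57% with it. The 4 calls without a block became 0 when shCtrl replicate 1, shCtrl replicate 2 or shPML replicate 2 was left out. Among 11 E2F and MuvB partners the median log2 fold change was -0.66, with 0 called without a block and 6 called lower with it (10.5% of all genes tested). The largest values were those of E2F5 (-1.06), a repressor E2F that binds RBL2, of the activator E2F2 (-0.92) and of the atypical repressor E2F8 (-0.80). Of the 11 values, 9 were negative and 2 positive. FOXM1, which joins the core after MYBL2, was at -0.79 with the block and called lower (adjusted p = 1.88e-09 in edgeR). Without a block it was not called (adjusted p = 0.0798 in edgeR). RBBP4, the remaining subunit of the MuvB core, was at -0.13 with the block (adjusted p = 0.323 in edgeR). MYBL1, the relative of MYBL2, was at 0.06 with the block (adjusted p = 0.767 in edgeR).

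The list of kinases, inhibitors and phosphatases that act on pocket proteins was mixed. Of its 21 genes tested, 2 fell without a block (0.333% of all genes tested), and 5 were called lower and 4 higher with it (10.5% and 8.57% of all genes tested). The median log2 fold change of the list was -0.14. PPP2R2A, a regulatory B subunit of protein phosphatase 2A, the enzyme that dephosphorylates RBL1 and RBL2, was at 56.1 and 65.7 CPM in shCtrl replicates 1 and 2 and at 18.5 and 18.6 CPM in shPML. It fell by 1.71 on the log2 scale (standard error 0.17), and both shPML libraries were far below those of shCtrl. In edgeR without a block it was just past the threshold (adjusted p = 0.0484). CDK2, BIRC5 and UBE2C had the same adjusted p, and with RLE size factors 0 genes of the lists were called. The other call without a block was CDK2 (-1.54), a kinase that phosphorylates pocket proteins, and its partner CCNE2 was at -1.05 (called with the block). DYRK1A, the kinase of LIN52, was at 0.03 with the block (adjusted p = 0.904 in edgeR). In the same list the cyclins CCND1 (0.90) and CCND2 (0.52) and the inhibitors CDKN1A (p21, 0.66) and CDKN2D (0.53) were called higher with the block. The related cyclin CCND3 (-1.0) and the related inhibitor CDKN1C (-1.04) were called lower. The groups of CCND2 and of CDKN1C overlapped, whereas those of CCND1, CDKN1A, CDKN2D and CCND3 did not. DESeq2 with the block called 1 gene of the list higher and 5 lower, against 6.71% and 8.39% of all genes tested. Apart from PPP2R2A, CDK2 and CCNE2, the genes named from this list were chosen after their values were seen, as were FOXM1, RBBP4 and MYBL1 above.

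Among 11 corepressors that pocket proteins recruit, 0 were called without a block and 1 was called lower with it, the histone methyltransferase SUV39H1 (-0.64), a share near the 10.5% of all genes tested. The median of this list was 0.13, with 8 of 11 genes above 0, against 8406 of the 16516 genes tested. ARID4A and SAP30, parts of histone deacetylase complexes, were at 0.45 and -0.37 and not called.

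The target genes showed values of 1 sign, whereas 8110 of the 16516 genes tested were negative. All 35 genes of G1 and S phase known as E2F targets had negative values, with a median of -0.72, and 0 were called without a block and 25 lower with it (10.5% of all genes tested). The DNA polymerase subunit POLA1 and the replication genes MCM2 and MCM10 had the largest, at -1.17, -1.17 and -1.07. All 34 genes of G2 and mitosis known as targets of CHR elements were negative too, with a median of -1.04, and 2 were called lower without a block (BIRC5 and UBE2C, 0.333% of all genes tested) and 32 with it (10.5%). CKS1B (-1.75), a partner of the cell cycle kinases, BIRC5 (-1.52), the survivin gene, and UBE2C (-1.45), a ubiquitin-conjugating enzyme of mitosis, had the largest. The CHR word was present in 20 of the 28 promoter windows found for the G2 and mitosis list (71.4%), against 13.9% of all windows. The E2F word was present in 15 of the 29 found for the G1 and S list (51.7%), against 4.22%. Both lists were made of genes known as targets of such sites, so these shares follow from the choice of genes and are no result of these data.

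**Figure D4:**
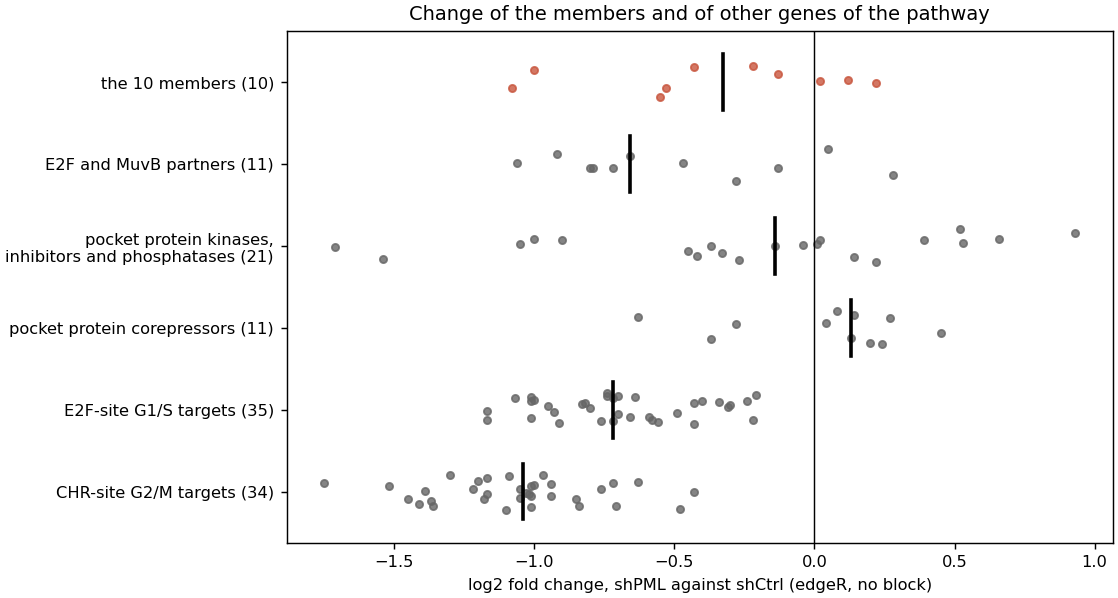
Log2 fold change of shPML against shCtrl (edgeR, no block) for the 10 genes (red) and the genes tested of 5 pathway lists (grey), with each list's median as a black bar and its number of genes in parentheses. The medians run from 0.13 for the corepressors to -1.04 for the G2 and mitosis targets, and that of the 10 genes is -0.32.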

How the data were processed

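The authors sequenced stranded mRNA libraries from a single end, used Trimmomatic 0.39 for trimming, STAR for alignment to GRCh38 and featureCounts 1.6.4 for counting per gene. The deposited values are raw counts without normalization. The annotation release and the strand setting are not given in the sources used here. Columns without a replicate number were taken as replicate 1, since each condition's other column is numbered 2. The labels used are those of the deposited record after its correction of 2 swapped samples.

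Counts were tested in R 4.3.3 with edgeR 4.0.16 (filterByExpr, TMM, quasi-likelihood test, Benjamini-Hochberg adjustment over all 16516 genes tested, no block) and, as alternatives, with the experiment as a block, with DESeq2 1.42.0, with RLE or upper quartile scaling, other filters and thresholds, and each library left out. CPM and CPM per kilobase were computed from the counts. Counting intervals are at 95% and cover counting error only. Without a block, p-values measure the spread between 2 infections of 1 line. With the block, the difference between the infections is taken out. Those p-values measure how far the difference of shPML from shCtrl varied between the 2 infections, with the spread estimated partly from other genes. A small p-value with the block therefore does not stand for many replicates. The methods describe 2 experiments, and the replicate numbers were read as those experiments. Same-numbered libraries deviated together from their group means (correlation 0.544 over genes, which are no independent replicates), and the block lowered the common dispersion from 0.0813 to 0.0137. The fits were tested on simulated data.

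The genes and lists were chosen with earlier results of these data known, and the lists come from general knowledge. Named are the 10 genes, PML, overlapping genes, up to 3 genes of each list with the largest log2 fold change among those whose groups did not overlap, and the 3 genes closest in pattern to RBL1, RBL2 and MYBL2. Deposited values were used as counts only, and the other experiments of the study were not analysed here. Figures were drawn with matplotlib 3.10.9. 1 of the lineage markers examined is not reported here.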

Additional observations from a re-analysis of the deposited data

How the results depend on the processing

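With 2 libraries in a group, the call of each gene depended on the model more than its log2 fold change did. The number of the 10 genes called lower was 0 without a block, 4 with the replicate block in edgeR, 3 in DESeq2, 4 in DESeq2 with the block and 2 (RB1 and MYBL2) with no filter on low counts, and 0 were called higher under any alternative. In the same order of alternatives, 1735, 898, 1386 and 946 of all genes tested were called lower in place of 55, and 1415, 577, 1109 and 891 higher in place of 13. The pathway lists then had 69, 60, 69 and 57 genes called lower in place of 4, and 4, 1, 1 and 2 called higher in place of 0. With RLE size factors 0 of all genes and 0 of the lists were called. With at least 10 counts in every library 144 genes were called lower, 53 higher and 7 of the lists lower, and with upper quartile scaling 21 genes were called higher. Leaving out each library in turn, which leaves a lone library assumed to vary like the other group, gave 0 to 61 genes called lower, 0 to 187 higher and 0 to 4 of the lists lower. Under these fits the log2 fold change was -1.31 to -0.88 for RB1 and -1.13 to -0.84 for MYBL2. It took either sign for TFDP2 (-0.06 to 0.12), LIN37 (-0.61 to 1.75), LIN52 (-0.31 to 0.09) and LIN54 (-0.44 to 0.05), none of which was called in any fit. The cause of these shifts was not tested. No other scaling moved the median of all genes by more than 0.05. The depth of LIN37, at 4 to 35 reads, limits what can be said of it.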

Other observations

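Genes with the pattern nearest to RBL1, RBL2 and MYBL2 were sought among 13144 genes with a mean of at least 1 CPM, by the root mean square difference of centred log2 CPM over the 4 libraries. Nearest to MYBL2 were GINS1 (0.022), a subunit of the replicative helicase, CCNA2 (0.022), the cyclin A2 gene, and UHMK1 (0.024), a kinase, all with a log2 fold change between -1.02 and -1.0. Nearest to RBL1 were ZNF684 (0.014), CYB5A (0.020) and TEX261 (0.021), and nearest to RBL2 were BBS2 (0.0032), ATP6AP2 (0.0044) and DDHD2 (0.0055). With 4 libraries such closeness is a description of these samples, since many genes share a pattern over so few points.

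A gene within an intron of RB1 on the opposite strand, LPAR6, shares no exon bases with it and had 0 and 3 reads in shCtrl replicates 1 and 2 and 0 and 10 reads in shPML.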
